A study of Mus musculus with 13 samples.

Results

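The late-numbered microRNAs (miRNAs) described here are the mouse miRNAs whose registry number is 5000 or more and whose counts sum to at least 10 over the 10 plasma libraries of the series. The members were thus chosen by their number and by the summed plasma counts. The rule keeps 65 of the 1354 miRNAs in the plasma table and 65 of its 507 rows with such a number. The members run from miR-5099 to miR-8117, and the highest number under 5000 with at least 10 counts is 3968, so that no miRNA lies close to the boundary in number. On the count boundary, 9 members hold exactly 10 counts and 1 row holds 9. Of the late-numbered rows outside the set, 164 have no count in any plasma library and 278 share 694 counts. The rule used the counts summed over both plasma groups and no difference between them.

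Small RNA was sequenced from vesicles of Balb/C mice and of a Balb/C tumor line. The C26-bearing group (6 plasma libraries) comes from mice given a subcutaneous injection of C26 colon adenocarcinoma cells, labelled cachectic and killed on day 14. The control group (4 plasma libraries) comes from mice labelled healthy, and the labels give neither a sham treatment nor the age or sex of either group. The third group (3 libraries) holds the vesicles, called TMVs, pelleted from serum-free medium that C26 cells had conditioned for 48 h. All tumors and TMVs come from 1 cell line. Control replicates 2 and 3 have 2 numbers each in their descriptions, with no word on what these stand for, and the labels do not say whether every library is from its own animal. P-values therefore measure only the spread between these libraries, which may be technical. Fewer vesicles of a kind and less of a miRNA per vesicle cannot be told apart in such material.

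The plasma libraries held 7962 to 131385 counts and the TMV libraries 112357 to 170571. Control replicate 4 with 7962 counts and C26-bearing replicate 4 with 9828 were the 2 shallowest. The descriptions also carry a number after the letter S, here called the sheet number, which runs from 15 to 24 over the plasma libraries. Sheet numbers 18 to 22 belong to control replicate 4 and to C26-bearing replicates 1 to 4. The other 5 plasma libraries are control replicates 1 to 3 and C26-bearing replicates 5 and 6.

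A miRNA is cut from a hairpin precursor by Drosha and Dicer, and the strand loaded onto an Argonaute protein pairs with target RNAs mainly through its seed, bases 2 to 8. Numbers are given in order of registration, so that high numbers mark miRNAs first reported from deep sequencing, many of them from few reads or few samples. Some of these are mirtrons, in which splicing in place of Drosha releases the precursor and the 3' arm ends with the last bases of an intron. A suffix of 5p or 3p names the arm of the hairpin, and a name with no suffix has no arm assigned. The tissue roles of most late-numbered miRNAs are not established, and none is given below.

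RefSeq (GRCm38.p6) held a mature sequence for 56 of the 65 members and a hairpin for 48. The most abundant members and those that the library and group comparisons turn on are shown first, 5' to 3', with the seed in capitals.
miR-5119: cAUCUCAUccuggggcugg
miR-5106: aGGUCUGUagcucaguuggcaga
miR-5108: gUAGAGCAcuggaugguuu
miR-7648-5p: cCGCGUUCcgggcucggcgc
miR-6904-3p: uCUGAUCUcuuaccccag
miR-6538: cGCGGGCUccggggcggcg
miR-8101: gGCGAGCGgagccggaggagcc
miR-5126: gCGGGCGGggccgggggcgggg
miR-8117: gCUCGUGUggaacagaagggg
miR-8099: cCAAGGCGugggaaagguugu
miR-7082-5p: uACGGGCAggaggaggggagg
These 11 miRNAs have 11 different seeds. Over all 56 members with a sequence there were 56 different seeds, so that no seed family was formed within the set. A seed was shared with a lower-numbered miRNA of at least 10 plasma counts in 4 cases: miR-5129-3p with miR-455-5p, miR-6240 with miR-330-3p, miR-6349 with miR-206-3p, and miR-6367 with miR-125a-5p, miR-125b-5p and miR-351-5p. No sequence was matched for miR-5099, miR-5107-3p, miR-5112, miR-6971-3p, miR-6971-5p, miR-6979-3p, miR-6982-3p, miR-6982-5p and miR-7235-5p.

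Late-numbered miRNAs made up from 0.244% to 64.1% of all counts in a plasma library. In the C26-bearing libraries 1 to 6 the summed share was 30.6%, 43.4%, 64.1%, 45.5%, 19.8% and 1.250%. In the control libraries 1 to 4 it was 0.244%, 2.61%, 1.40% and 53.7%. The highest control library lay above 5 of the 6 C26-bearing libraries and the lowest C26-bearing library lay below 3 of the 4 controls, so that the groups overlapped along almost their whole range. The means were 34.1% ± 21.95 (SD, n = 6) and 14.5% ± 26.2 (SD, n = 4). Counting error was small against this spread: the 95% Wilson interval ran from 52.6% to 54.8% for the shallowest library, control replicate 4, and from 1.13% to 1.38% for C26-bearing replicate 6. Such intervals cover counting error only, since no molecular identifiers are described.

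**Figure D1:**
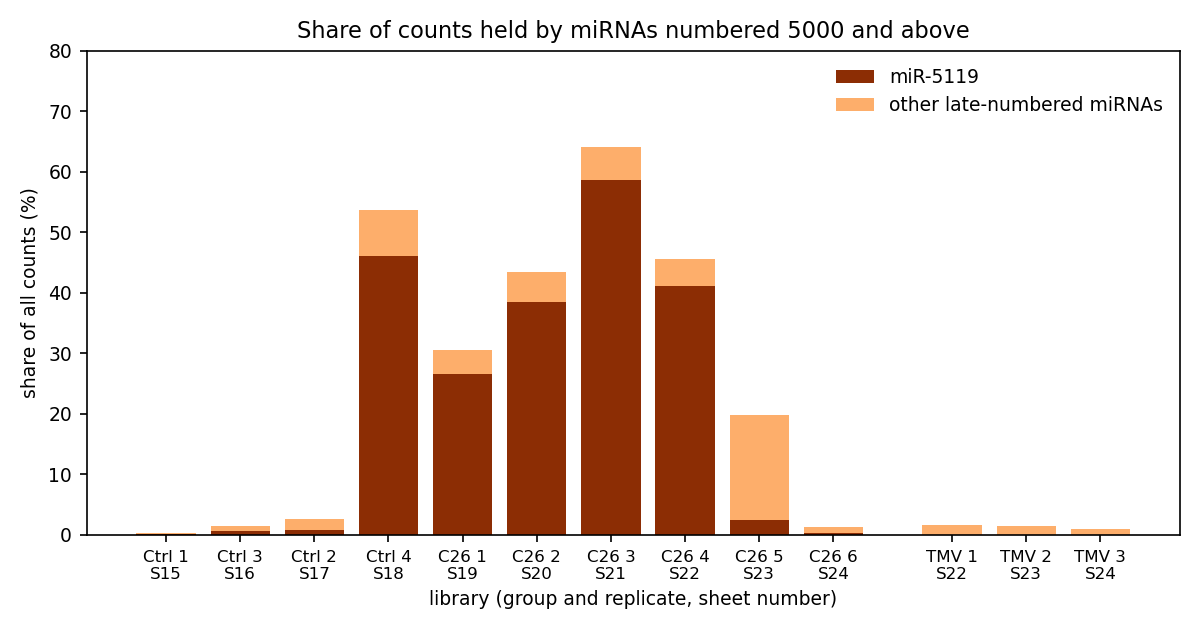
Share of all counts (y axis, %) held by miR-5119 (dark) and by the other late-numbered miRNAs (light) in each plasma library, ordered by sheet number (S), and in the 3 TMV libraries. The 5 plasma libraries with sheet numbers 18 to 22 stand between 30.6% and 64.1%, the other plasma libraries reach 19.8% at most, and the TMV libraries lie between 1.02% and 1.62%.

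Sheet numbers 18 to 22 were set apart because libraries rich in miR-5119 were known from earlier results to carry them. A gap in miR-5119 between these ranges was thus fixed in advance, and the summed share includes miR-5119. The libraries with sheet numbers 18 to 22 held 30.6% to 64.1% and the other 5 held 0.244% to 19.8%, with no overlap. Only 1 control has a sheet number from 18 to 22, so that a group difference inside that range rests on 1 control library. What the sheet number records is not stated in the labels, and its part in the shares was not tested.

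Most of the summed share was 1 miRNA, miR-5119, which is annotated in an intron of Cdk12 (cyclin-dependent kinase 12) at chr11:98262606-98262662, plus strand. It had 83226 counts over the plasma libraries. Its share of all counts was 26.6%, 38.4%, 58.7%, 41.1%, 2.55% and 0.332% in C26-bearing libraries 1 to 6. In control libraries 1 to 4 it was 0.0968%, 0.819%, 0.641% and 46.1%. Control replicate 4 was thus the second highest of the 10 libraries, while the other 3 controls and C26-bearing replicate 6 stayed under 1%.

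The other 64 members together held 4.04%, 4.92%, 5.38%, 4.396%, 17.3% and 0.918% of counts in C26-bearing libraries 1 to 6. In controls 1 to 4 they held 0.148%, 1.79%, 0.759% and 7.62%. C26-bearing replicate 5, which had little miR-5119, was the highest here. With miR-5119 taken out of both the sum and the total, the share was 8.78% ± 5.88 (SD, n = 6) in C26-bearing and 4.21% ± 6.65 (SD, n = 4) in control plasma, a difference smaller than either SD. On this scale the libraries with sheet numbers 18 to 22 ran from 5.50% to 14.1% and the others from 0.148% to 17.7%, so that the ranges now overlapped through C26-bearing replicate 5.

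Which member was the largest apart from miR-5119 changed from library to library. For the first 3 C26-bearing replicates this was miR-5106, at 1.69%, 3.54% and 3.86% of all counts. It was miR-8099 in C26-bearing replicate 4 (1.62%) and miR-7648-5p in C26-bearing replicate 5 (9.92%, above miR-5119 at 2.55%). In C26-bearing replicate 6 it was miR-5126 (0.354%, above miR-5119 at 0.332%). Among the controls it was miR-5108 in replicates 1 and 3 (0.0246% and 0.247%), miR-6538 in replicate 2 (0.527%) and miR-7082-5p in replicate 4 (1.63%). Thus 7 different miRNAs took this place in 10 libraries.

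The TMV table lists 49 of the 65 members, of which 37 had a count in at least 1 TMV library and 15 had 10 or more counts in all. The summed share of these members was 1.62%, 1.44% and 1.02%, with a mean of 1.36% ± 0.311 (SD, n = 3). TMVs have 400 late-numbered rows of any count, and those outside the set chosen in plasma were neither summed nor ranked. The 2 tables hold raw counts per library, and shares were taken within each library, so that they can be set side by side but were not tested against each other.

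The leading member differed between the materials. In TMVs it was miR-5099, with 1912, 1241 and 1063 counts, or 0.623% to 1.30% of all counts. In plasma the same miRNA held 0.00454% to 0.255% of all counts. MiR-5119 had 56, 12 and 19 TMV counts, or 0.0382%, 0.0107% and 0.0111%. In every plasma library its share was above the highest TMV share. The next in TMVs were miR-8117 with 64, 123 and 276 counts and miR-6239 with 74, 98 and 173 counts. MiR-7648-5p, which led C26-bearing replicate 5, had 1, 0 and 3 TMV counts.

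To describe co-variation, each level was taken as CPM (counts scaled to a common library total), computed without the counts of miR-5119, so that its large share does not lower the other values. The libraries fall into separate ranges of miR-5119, 26.6% to 58.7% and 0.0968% to 2.55% of all counts, so Spearman's rank coefficient over the 10 libraries is given only as a measure of likeness. All miRNAs of a library share its depth and its total. Among the members the most like miR-5119 were miR-5108 (coefficient 0.98), miR-5106 (0.88), miR-5118 (0.82), miR-6240 (0.82) and miR-6347 (0.81).

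The level of miR-5106 was 23005, 57554, 93340, 18150, 1548 and 93.4 CPM in C26-bearing libraries 1 to 6. In controls 1 to 4 it was 95.3, 1844, 299 and 19800 CPM. The 5 libraries with sheet numbers 18 to 22 lay between 18150 and 93340 CPM, and the 5 others between 93.4 and 1844 CPM.

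MiR-5108 lies within H2afy2 (a macroH2A histone gene) on the opposite strand, at chr10:61774737-61774821. Its level was 6280, 9805, 10953, 6569, 2727 and 280.1 CPM in C26-bearing libraries 1 to 6. In controls 1 to 4 it was 246, 1483, 2482 and 10948 CPM. Control replicate 4 again sat with C26-bearing replicates 1 to 4, and the gap between the ranges was smaller, from 2727 to 6280 CPM.

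MiR-5118 was counted 21, 19, 17 and 1 times in the first 4 C26-bearing replicates and 16 times in control replicate 4, and never in the other 5 plasma libraries. MiR-8099, which has 2 annotated precursors, was detected in the same libraries and in no other. Its counts were 75, 16, 4 and 159 in the first 4 C26-bearing replicates, against 43 in control replicate 4. A count of 0 allows up to 3 counts, which is 22.98 CPM in the deepest and 111 CPM in the shallowest of those 5 libraries.

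In all, 6 members had levels in the 5 libraries with sheet numbers 18 to 22 that lay wholly above those in the others. They were miR-5119, by which the range was set, and miR-5106, miR-5108, miR-5118, miR-6240 and miR-8099. Among all 348 plasma miRNAs with at least 10 counts, 7.76% lay wholly above, and 6 of 65 is near that share. For miR-6240 the gap rests on 1 count in C26-bearing replicate 4 (173 CPM), against 4 counts in C26-bearing replicate 5 (147 CPM). That of miR-5118 also rests on 1 count in C26-bearing replicate 4. Only miR-7043-3p lay wholly below, with 5.17% of all 348 doing so. Without the 2 libraries under 10000 counts, 13 members lay wholly above, where 19.8% of all 348 did so, and 2 lay wholly below, where 8.91% of all 348 did so. The 13 of 65 are again near the share over all miRNAs.

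Members and other miRNAs resembled miR-5119 to a like extent at the upper end. The rank coefficient was 0.7 or more for 9 of the 64 other members (14.1%) and for 40 of the 283 other plasma miRNAs with at least 10 counts (14.1%). At the lower end it was -0.7 or less for 1 member, miR-7043-3p, and for 20 of the others (7.07%). The median coefficient was 0.41 over members and 0.18 over the others. Among the lower-numbered miRNAs with at least 50 counts, the nearest to miR-5119 were miR-30c-5p (0.94), miR-15b-5p (0.93), miR-16-5p (0.93), miR-23b-3p (0.92) and miR-221-3p (0.87). The miR-16-5p level was 1835 to 9415 CPM in the libraries with sheet numbers 18 to 22 and 222 to 886 CPM in the others. A level that separates the same libraries is therefore found among long-known miRNAs as well.

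**Figure D2:**
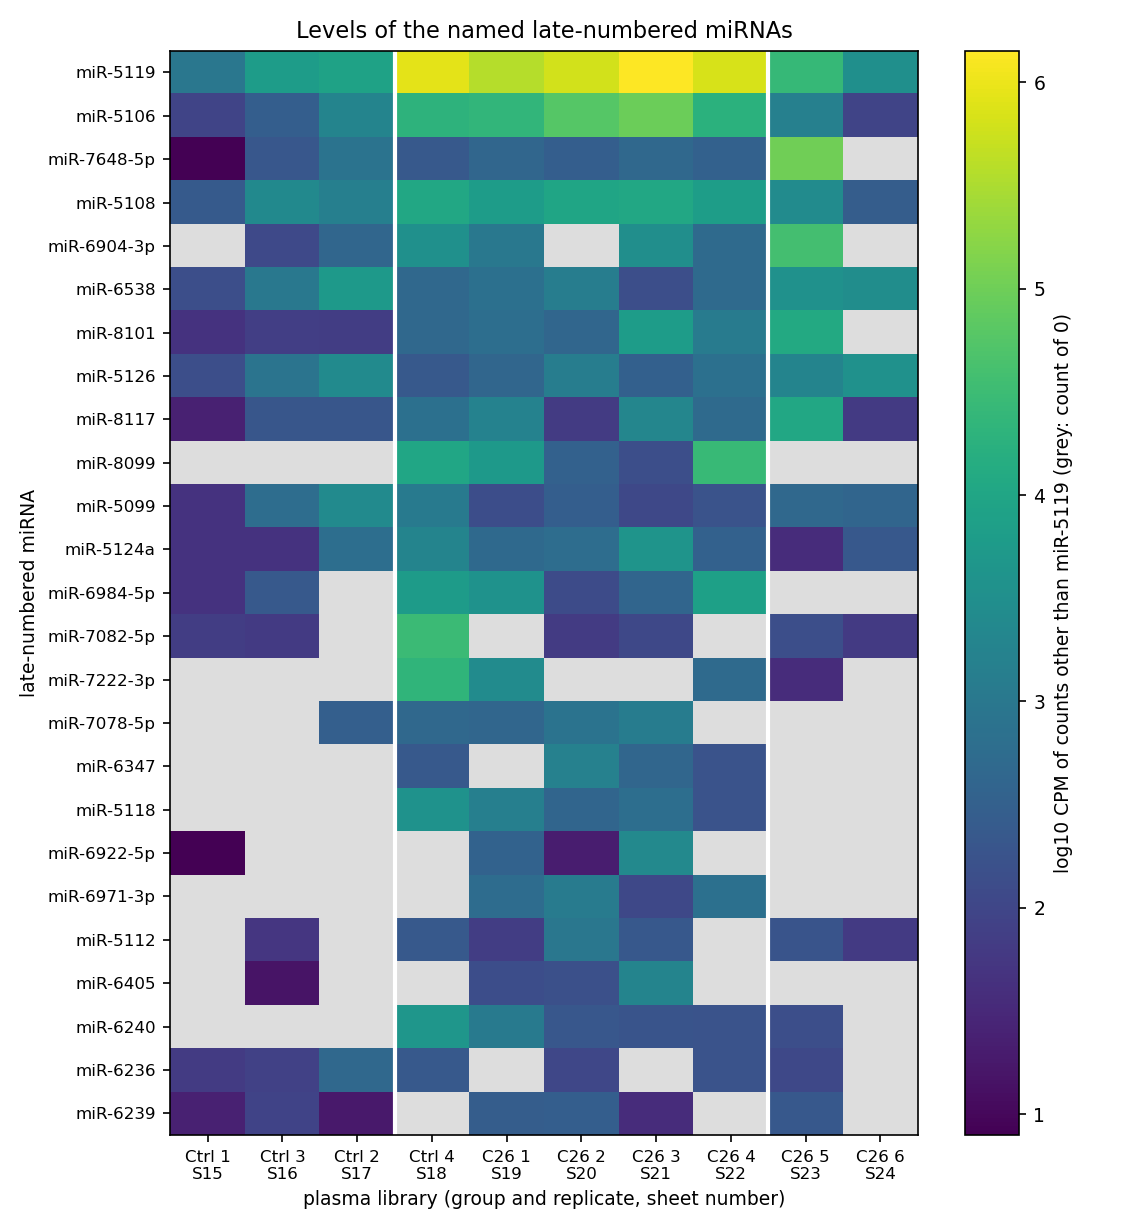
Levels of 25 late-numbered miRNAs, in order of their summed plasma counts, as log10 CPM of the counts other than miR-5119 (color), in the 10 plasma libraries ordered by sheet number. White lines bound sheet numbers 18 to 22 and grey marks a count of 0. MiR-5119, miR-5106, miR-5108, miR-5118, miR-6240 and miR-8099 are higher between the lines than outside them, and miR-7648-5p and miR-6904-3p stand out in C26-bearing replicate 5.

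Marker miRNAs of other cell types also differed between these libraries, as percent of counts other than miR-5119. The summed level of the 3 red cell miRNAs (miR-451a, miR-486a-5p and miR-144-3p) was 4.59% to 13.7% with sheet numbers 18 to 22 and 19.6% to 52.8% in the others, with no overlap. Between the groups it overlapped, at 4.59% to 52.8% in C26-bearing and 10.8% to 31.4% in control plasma. The sum leaves out miR-16-5p, also listed with red cell miRNAs, which was higher with sheet numbers 18 to 22, as given above. The 3 muscle miRNAs (miR-1a-3p, miR-133a-3p and miR-206-3p) held 4.69% to 20.3% against 0.730% to 9.03%. MiR-223-3p, abundant in platelets and myeloid cells, held 0.0346% to 0.249% against 0% to 0.00556%. The liver miRNA miR-122-5p held 1.23% to 11.1% against 0.538% to 25.5%, and the lymphocyte miRNA miR-150-5p 0.0173% to 0.454% against 0.0221% to 0.0763%. None of these 9 markers was at 0 in all plasma libraries. Their part in the levels of the late-numbered miRNAs was not tested.

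A second pattern was a high count in a single library. For 38 of the 65 members (58.5%), more than 50% of the CPM summed over the 10 libraries came from 1 library. The same held for 10.7% of miRNAs numbered under 200, 16.5% of those numbered from 200 to under 1000 and 27.50% of those from 1000 to under 5000, all with at least 10 counts. Only 8 members had a count in all 10 libraries, against 62 of 122 miRNAs numbered under 200.

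Since few counts alone can put a miRNA in 1 library, the comparison was made at like abundance. With 10 to 29 counts, 23 of 33 members had over 50% in 1 library, against 29 of 87 lower-numbered miRNAs. With 100 to under 1000 counts it was 5 of 10 members against 5 of 72 lower-numbered miRNAs. With 1000 counts or more it was 2 of 5 members against 0 of 41. These counts describe the set and were not tested, since the members were chosen with their counts known.

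**Figure D3:**
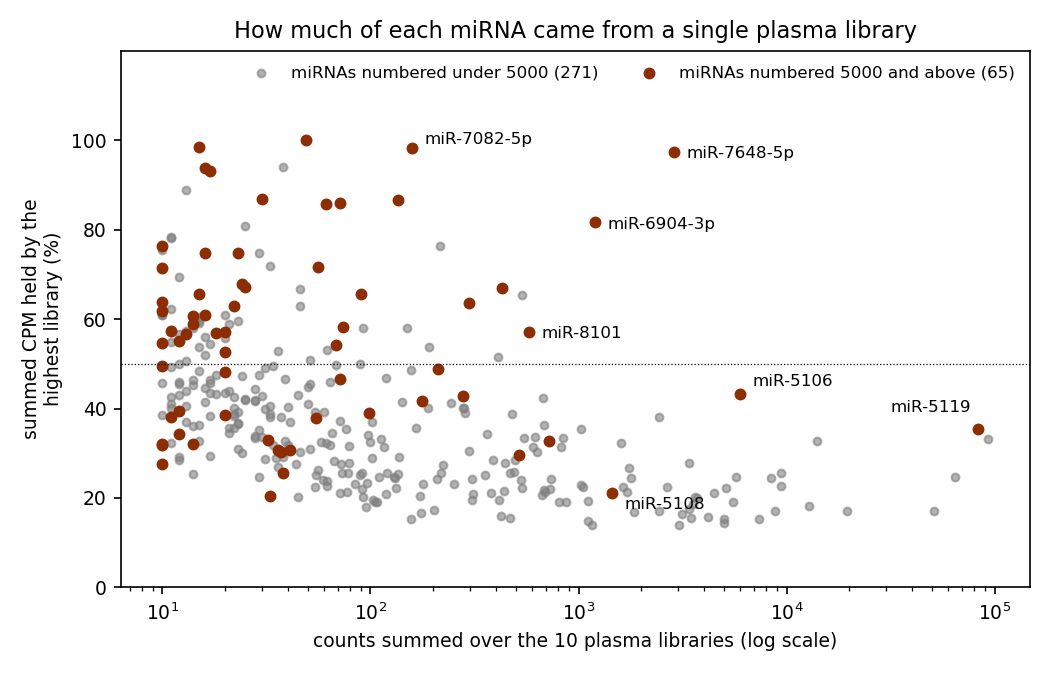
Percent of the CPM summed over 10 plasma libraries that came from the highest library (y axis) against the summed count (x axis, log scale), for the 65 late-numbered members (brown) and 271 lower-numbered miRNAs (grey), each with at least 10 counts. The dotted line marks 50%. MiR-7648-5p and miR-6904-3p stand far above lower-numbered miRNAs of like count, and miR-5108 stands among them.

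The 2 most abundant examples came from C26-bearing replicate 5. MiR-7648-5p, annotated in an exon of Alg10b (a glucosyltransferase of N-glycan precursor synthesis) at chr15:90224360-90224412, had 2763 counts there. The other C26-bearing libraries had 0 to 14 counts of it, and the controls 1, 43, 28 and 1. Its partner arm from the same hairpin, miR-7648-3p, had 3 counts in that library and 33 in all. MiR-6904-3p, at the edge of an exon of Parp1 (a DNA damage-responsive ADP-ribose polymerase) at chr1:180587201-180587267, had 1046 counts in that library. Elsewhere its counts were 0 to 85 in C26-bearing and 0 to 24 in control libraries.

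Control replicate 4 held the highest level of 14 members, and 12 of these had over 50% of their summed CPM there. MiR-7082-5p, from a hairpin at chr9:21075497-21075588, had 130 counts in control replicate 4 and 0 to 9 counts in each of the other 9 libraries. MiR-6990-5p had 49 counts there and none elsewhere in plasma, while miR-7222-3p had 92 there and 39 in C26-bearing replicate 1. C26-bearing replicate 4 held the highest level of 13 members. These 2 libraries are the shallowest, and 1 count in control replicate 4 is 126 CPM of all counts, so a member with few counts reaches a high level there easily.

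The group comparison asked which vesicle miRNAs differ in plasma between tumor-bearing and healthy mice. It was fitted on all 130 plasma miRNAs that pass a filter on low counts, among them 13 of the 65 members. The other 52 members did not pass this filter and were not tested in this fit, among them miR-7648-5p with 2871 counts. No member was called at an adjusted p under 0.05 (edgeR quasi-likelihood test, Benjamini-Hochberg), nor was any other miRNA (0% of 130). Of the 13, 2 had a higher level in C26-bearing plasma at an unadjusted p under 0.05 (miR-8101 and miR-8117), where 6.92% of all 130 did so. In the other direction there was 1 (miR-5099), where 4.62% of all 130 did so. DESeq2 called 1 member, miR-8101 (adjusted p = 0.0129), and 3.08% of the miRNAs tested. Limma voom with quality weights called miR-5106 (adjusted p = 0.0269) and miR-5119 (adjusted p = 0.0320) as higher, and 13.1% of the miRNAs tested, 5.38% higher and 7.69% lower.

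Other settings changed which members passed. With no filter, edgeR called 2 of the 65 members, miR-6971-3p and miR-8101, both higher, where 0.419% of the 955 miRNAs with a count were called (0.209% higher and 0.209% lower). At an unadjusted p under 0.05 there were 15 members higher and 4 lower, where 7.54% and 2.41% of all 955 were (9.95% in either direction). The 955 include miRNAs with fewer than 10 counts, which the members leave out by rule, and only 348 hold at least 10. The shares of the 955 are therefore not a like background for the members. Within sheet numbers 18 to 22, edgeR called 1 of 27 members, miR-7082-5p, as lower, where 0.8% of 125 miRNAs were called. At the unadjusted threshold 4 members were lower there and none higher, where 4.8% of the 125 were lower and 8.8% passed in either direction. This setting has 1 control library, control replicate 4, which holds 130 of the 159 plasma counts of miR-7082-5p, and that lone sample is assumed to vary like the C26-bearing ones.

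MiR-8101 lies in an exon of Hdac5 (a class II histone deacetylase) at chr11:102230040-102230150, minus strand. Its TMM-scaled level was 482, 251, 4206, 712, 10760 and 0 CPM in C26-bearing libraries 1 to 6 and 52.7, 61.7, 56.4 and 346 CPM in controls 1 to 4. Of the C26-bearing libraries, 4 lay above all controls, 1 lay within their range and replicate 6 had no count. The log2 fold change (C26-bearing minus control) was 4.95 ± 1.73 (SE), with an edgeR adjusted p of 0.335 that ranged from 0.0103 to 0.998 over 21 alternatives. Within sheet numbers 18 to 22 the log2 fold change was 1.93. Among the other 5 plasma libraries it did not pass the filter on low counts.

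MiR-8117 lies in an intron of the predicted gene Gm7205 at chr5:50252762-50252868, plus strand. Its TMM-scaled level was 1287, 37.6, 1307, 305, 9467 and 70.0 CPM in C26-bearing libraries 1 to 6. In controls 1 to 4 it was 26.4, 170, 152 and 518 CPM. Only 3 of the 6 C26-bearing libraries lay above all controls. The log2 fold change was 3.57 ± 1.60 (SE), with an edgeR adjusted p of 0.395. It was 1.75 without C26-bearing replicate 5, 0.53 within sheet numbers 18 to 22 and 5.28 among the other libraries.

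MiR-5099, the leading member in TMVs, was the 1 member lower in C26-bearing plasma at the unadjusted threshold. Its TMM-scaled level was 107, 175, 71.3, 102, 410.2 and 455 CPM in C26-bearing libraries 1 to 6. In controls 1 to 4 it was 52.7, 2189, 440.2 and 864 CPM. The lowest of all 10 values was a control, so the groups overlapped. The log2 fold change was -1.97 ± 0.88 (SE), with an edgeR adjusted p of 0.395. Without control replicate 2 it was -0.997, within sheet numbers 18 to 22 -2.90 and among the other libraries -1.06.

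For miR-5119 the group difference was smaller than its error. The log2 fold change was 1.05 ± 1.74 (SE), with an edgeR adjusted p of 0.789. Without control replicate 4 it was 6.46, still with an adjusted p of 0.154, and within sheet numbers 18 to 22 it was -0.44. Among the other 5 plasma libraries it was 1.54. For miR-5106 it was 2.37 ± 1.61 (SE) over all plasma libraries, with an edgeR adjusted p of 0.651. Leaving out control replicate 4 gave 5.20, within sheet numbers 18 to 22 it was 0.97, and among the other libraries it was 0.15.

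The remaining 8 members tested had log2 fold changes from -0.85 (miR-5118) to 3.23 (miR-6904-3p). Without C26-bearing replicate 5 the value for miR-6904-3p was -0.16. Over the 13 members tested, the median log2 fold change was 0.60, with 10 above 0 and 3 below, and over all 130 miRNAs it was 0.01. The median SE of the members was 1.61 on the log2 scale, against 0.69 for the other 117 miRNAs. No member had levels that did not overlap between the groups, and among all 348 miRNAs with at least 10 counts 0% lay wholly above and 0.575% wholly below.

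**Figure D4:**
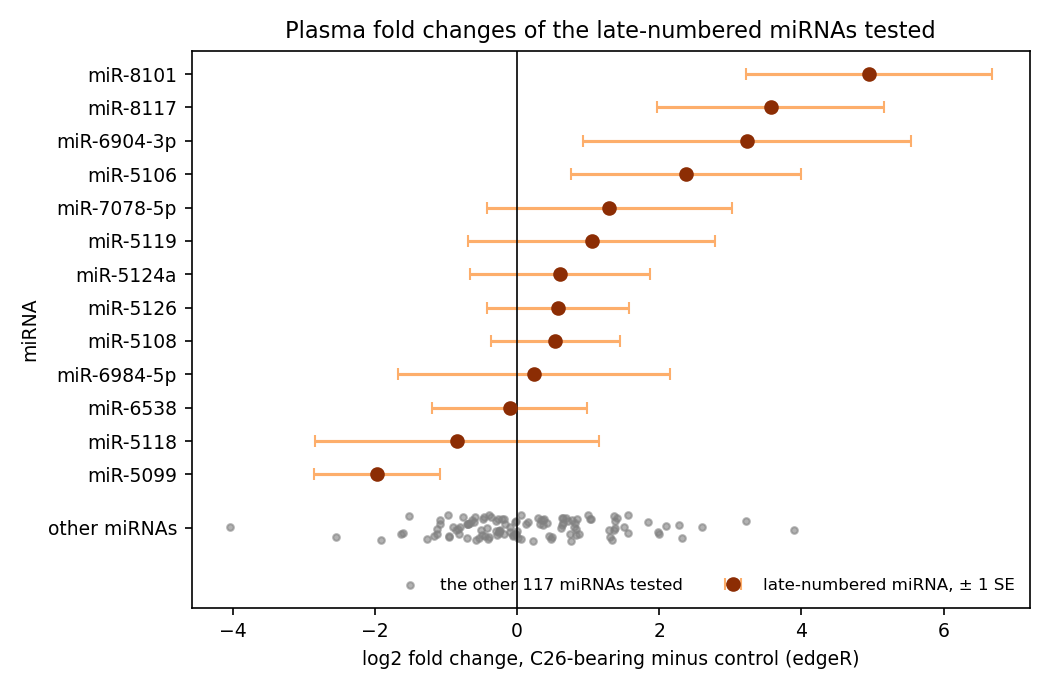
Log2 fold change (x axis, C26-bearing minus control, edgeR) of the 13 late-numbered miRNAs tested (brown, bars are 1 SE to each side) and of the other 117 miRNAs tested (grey, spread vertically for visibility). Estimates run from -1.97 for miR-5099 to 4.95 for miR-8101, and no adjusted p is under 0.05.

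The mature and hairpin sequences were then set beside those of the 271 lower-numbered miRNAs with at least 10 plasma counts, of which 232 had a mature sequence and 214 a hairpin. The median length of a mature member was 21 bases, against 22. A length of 21 to 23 bases, the usual product of Dicer, was found for 41 of 56 members (73.2%) and 209 of 232 lower-numbered miRNAs (90.1%). Members of 20 bases or fewer were 13 (23.2%), against 11 (4.74%). These include miR-5119 and miR-5108 with 19 bases each and miR-6904-3p with 18.

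The median GC content was 58.5% for members and 47.9% for lower-numbered miRNAs. It was 70% or more in 9 members (16.1%) and 10 lower-numbered miRNAs (4.31%). MiR-5126, shown above, has no base other than G and C (100%), miR-6538 has 94.7% and miR-7648-5p 85.0%. A U at the first base, often seen in strands bound by Argonaute, was about as frequent in both sets, at 46.4% and 45.7%.

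The folding of the hairpins, computed with RNAfold, overlapped widely between the sets. Per 100 bases of hairpin, the median energy was -40.6 kcal/mol for members and -43.5 kcal/mol for lower-numbered miRNAs. It was weaker than -30 kcal/mol in 3 of 48 members, the weakest being miR-6238 at -20.8 and miR-6240 at -21.1, and in 3 of 214 others. The median share of mature bases paired in the predicted fold was 77.0% against 85.7%, and the median hairpin length was 72 against 83 bases.

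Hairpins of the members differ in shape, and 2 are printed with the mature sequence in capitals.
miR-5119 hairpin: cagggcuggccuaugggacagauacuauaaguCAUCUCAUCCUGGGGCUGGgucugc
miR-7082 hairpin: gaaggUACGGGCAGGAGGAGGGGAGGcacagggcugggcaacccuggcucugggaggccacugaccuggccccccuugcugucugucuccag
The miR-5119 hairpin has 57 bases and a folding energy of -23.2 kcal/mol, with 78.9% of the mature bases paired. That of miR-7082 has 92 bases and -48.5 kcal/mol. It is the 1 member hairpin whose ends both lie within 5 bases of the ends of an annotated intron (GENCODE M21), at a distance of up to 4 bases.

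**Figure D5:**
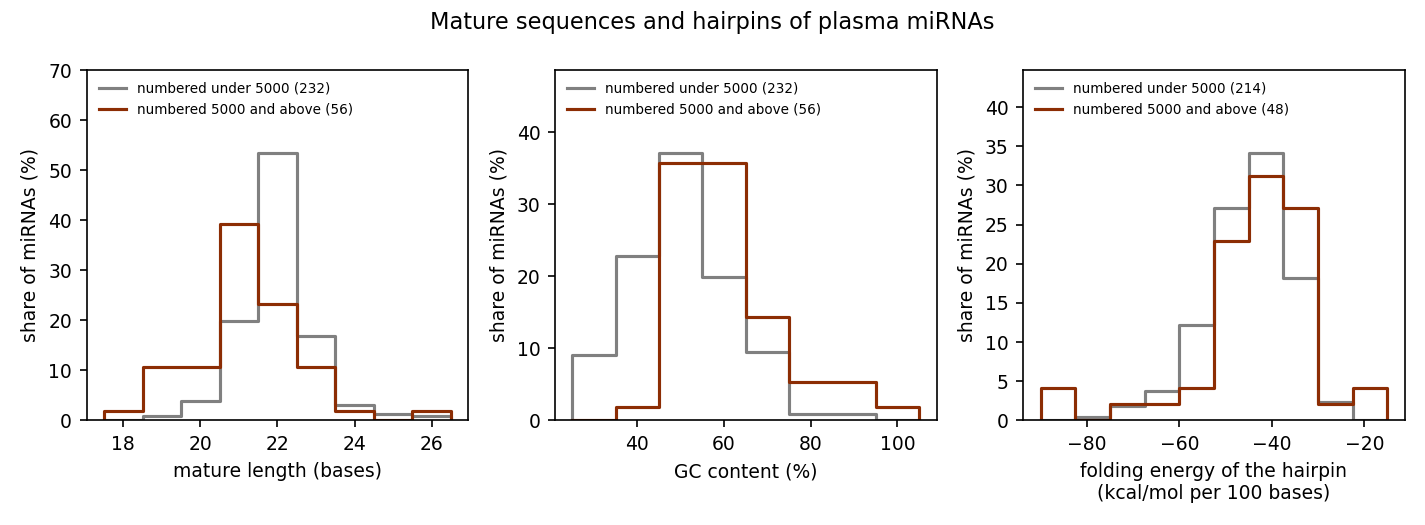
Distributions of mature length (bases), GC content (%) and hairpin folding energy (kcal/mol per 100 bases) for late-numbered members (brown) and lower-numbered miRNAs (grey), each line summing to 100% of the miRNAs given in the legend. A length of 20 bases or fewer was found for 23.2% of members against 4.74% of the others, the median GC content was 58.5% against 47.9%, and the folding energies overlap.

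Many 3p members end where an intron ends. Of 14 members named 3p with a sequence, 8 had a mature 3' end within 2 bases of an annotated intron end, against 2 of 108 lower-numbered 3p miRNAs (miR-3100-3p and miR-3103-3p). AG, the last bases of nearly all introns, ended 8 of the 14 and 7 of the 108. The 7 members with both features are printed with the seed in capitals, beside their host genes.
miR-6904-3p (Parp1): uCUGAUCUcuuaccccag
miR-7043-3p (Rassf4): aCUGUGCCucucuguuuucag
miR-6988-3p (Syvn1): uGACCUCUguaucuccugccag
miR-7015-3p (Smap2): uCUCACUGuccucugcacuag
miR-7050-3p (Fxyd5): uCUCAGCCuuuaucuccccag
miR-7674-3p (Nup214): uCCCAUUCucaccgcacccag
miR-7086-3p (Il10ra): uCCGUUCUgauaucuccucag
All 7 end in CAG or UAG, the usual last bases of an intron. Apart from miR-6904-3p they had 10 to 36 plasma counts each. MiR-7043-3p, with 1, 5, 2, 8 and 20 counts in C26-bearing replicates 5 and 6 and controls 1 to 3, had no count in any library with sheet numbers 18 to 22.

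The second arm of the hairpin had a count for 14 of the 37 members named by arm, against 166 of 251 lower-numbered miRNAs. It reached 10 counts for fewer. Of the 37 members named by arm, 6 (16.2%) had a partner arm with at least 10 plasma counts, against 94 of 251 (37.5%) lower-numbered miRNAs. The 6 are the 3 pairs of miR-6971, miR-6982 and miR-7648. MiR-6971-3p had 71 counts, all in C26-bearing replicates 1 to 4, while miR-6971-5p had 10 counts, at most 5 of them in any library. A row for the partner arm was in the table for 24 of the 37 members and for 202 of the 251 others, and a partner with no row was taken as uncounted. The sets were not compared at like abundance here. Of the 65 members 33 hold 10 to 29 counts, against 87 of the 271 lower-numbered miRNAs.

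Mature members were searched in 139565 GENCODE M21 transcripts, with annotated miRNAs left out. No member matched an annotated small RNA, among them 354 ribosomal RNA and 22 mitochondrial tRNA transcripts, with up to 2 mismatches. A match to a gene other than the host with at most 1 mismatch was found for 3 of 56 members (5.36%) and 33 of 232 lower-numbered miRNAs (14.2%). Only 1 host gene name was left out per miRNA. A match at the miRNA's own place under another gene name is thus counted, as for miR-1839-5p. The 3 members are miR-7648-5p, miR-7044-5p and miR-8114. For miR-8114 the name left out was Teddm2, on the opposite strand, and its exact match is to Glul. Whether that match lies at the miRNA's own place was not checked. With up to 2 mismatches, miR-7044-5p matched 33 genes and miR-6538 10 genes. Nuclear tRNAs, the full ribosomal repeat and genomic repeats were not searched. How reads that fit several places were counted is not stated in the labels, and counts of short or GC-rich members are uncertain in that respect.

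By position, 23 of the 56 members lie in an intron, 22 in an exon or across its edge and 11 between annotated genes. For the lower-numbered miRNAs these numbers are 111, 66 and 55 of 232. The exon share was 39.3% for members against 28.4%. An exon of any annotated transcript of the host gene was counted, on either strand. The exon class therefore includes members that end an intron in another transcript, such as miR-7050-3p. It also includes hairpins that reach past the end of an intron, such as those of miR-6904-3p and miR-7082-5p.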

How the data were processed

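The authors deposited raw counts per mature miRNA in 1 table for plasma and 1 for TMVs. Per the labels' protocols, vesicles were pelleted by successive spins, RNA was isolated with TriPure, and a kit for small RNA was used for the libraries. Reads went through bcl2fastq and cutadapt 1.10, per the submitters' processing notes. An aligner, a counter, an annotation or a build is not named in the labels or headers. All rows name a miRNA, and no columns held identical values.

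Members and lists were chosen with earlier results of these data known. Levels are CPM of counts other than miR-5119, or TMM-scaled CPM where said. Plasma groups were compared with edgeR 4.0.16 in R 4.3.3 (filterByExpr with a minimum count of 10, TMM, robust quasi-likelihood fit, Benjamini-Hochberg at 0.05), checked on simulated counts. Alternatives used DESeq2 1.42.0, limma 3.58.1 (voom with quality weights), other scalings and filters, a term for sheet numbers 18 to 22, and libraries left out.

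Sequences are RefSeq's and coordinates are GRCm38. Hairpins were folded with RNAfold 2.7.2. Named were the 4 markers miR-5119, miR-5106, miR-8101 and miR-7082-5p, all members tested, the 10 most abundant of the rest, the 3 most abundant in TMVs, and the 5 members and 5 other miRNAs of at least 50 counts most like miR-5119. MiRNAs described by their sequence, partner arm or detection in certain libraries were chosen after their values were seen. The host gene and hairpin of miR-5106 are not reported here.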

Additional observations from a re-analysis of the deposited data

Results flagged for a closer look

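Samples far from the others of their group were found by Dixon's ratio, the gap to the nearest value divided by the group's range. Of 53 sets of values tested, 27 passed the 95% limit. Chance gives about 1 in 20, and low counts make such gaps common. The values lie in control replicate 4 in 12 cases and in C26-bearing replicate 5 in 4.

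Control replicate 4 was the highest control in the summed share (53.7% against 2.61% for the next, ratio 0.956) and in the share of miR-5119 (46.1% against 0.819%, ratio 0.984). Its levels also stood apart for miR-5106 (0.911), miR-8101 (0.931), miR-7082-5p (0.998), miR-6904-3p (0.876) and miR-6984-5p (0.962). For miR-5118, miR-8099, miR-7222-3p, miR-6347 and miR-6240 it was the only control with a count, which gives a ratio of 1. The same holds for control replicate 1 with miR-6922-5p and control replicate 3 with miR-6405, both at a ratio of 1. Control replicate 2 stood apart for miR-6538 (0.831).

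C26-bearing replicate 5 was the highest of its group in the summed share without miR-5119 (17.3% against 5.38%, ratio 0.727). It also stood apart for miR-7648-5p (101820 against 476 CPM of counts other than miR-5119, ratio 0.995), miR-6904-3p (0.919) and miR-8117 (0.822). C26-bearing replicate 3 stood apart for miR-5124a (0.863), miR-6922-5p (0.85) and miR-6405 (0.919). Replicate 2 did so for miR-6347 (0.728) and miR-5112 (0.775), replicate 1 for miR-7222-3p (0.812) and miR-6240 (0.812), and replicate 4 for miR-8099 (0.807).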

How the results depend on the processing

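The edgeR test called 0 members, and it still called 0 with RLE size factors, library totals, a filter of 10 CPM, miR-5119 left out, the sheet-number term, and each library left out. It called 2 with no filter (miR-6971-3p and miR-8101). Within sheet numbers 18 to 22, with 1 control library, only log2 fold changes are given. DESeq2 called 1 and limma voom 2. The 3 of 13 tested members with an unadjusted p under 0.05, beside 11.5% of all miRNAs tested, became 19 of 65 with no filter (9.95% of all), 10 of 46 with the 10 CPM filter (8.96%), 6 of 13 with voom (39.2%), 5 of 15 without the 2 libraries under 10000 counts (16.7%), 0 of 19 without the 2 controls with 2 numbers (0.746%), and 1 of 10 within sheet numbers 15 to 17, 23 and 24 (11.3%). With 1 library left out they ranged from 0 of 8 (without C26-bearing replicate 3, 8.74% of all) to 7 of 17 (without control replicate 4, 19.2%). The 9.95% with no filter covers miRNAs of fewer than 10 counts, which the members leave out by rule, so it is not a like background.

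The mean C26-bearing share of 34.1% became 8.78% without miR-5119 and 3.79% for numbers of 6000 or more. The 7 members not overlapping between sheet-number ranges became 15 without the 2 libraries under 10000 counts, 13 higher and 2 lower, beside 19.8% and 8.91% of all 348 miRNAs. The causes were not tested.

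The log2 fold changes of miR-5099, miR-5106, miR-8101 and miR-8117 kept their sign in every alternative that gave a value, and 9 others changed it, none being called where the sign changed. Without the 2 controls with 2 numbers, values were -0.073 for miR-5108, -0.18 for miR-5124a, 2.495 for miR-6538 and -0.67 for miR-6984-5p. With the sheet-number term they were -0.10 for miR-5108, -0.56 for miR-5124a, 0.71 for miR-6538, -2.07 for miR-6984-5p and -1.39 for miR-7078-5p. Within sheet numbers 18 to 22 they were -0.64 for miR-5108, -0.44 for miR-5119, -0.70 for miR-5124a, 0.33 for miR-6538, -1.78 for miR-6904-3p and -1.17 for miR-6984-5p. Within the other sheet numbers they were -0.54 for miR-5124a and 0.80 for miR-6538. MiR-5118 had 4.18 with voom and 7.64 without the 2 libraries under 10000 counts. With 1 library left out, values ranged from -0.64 to 7.45 for miR-5118, -0.69 to 1.89 for miR-5124a, -0.32 to 1.73 for miR-5126, -0.64 to 1.501 for miR-6538, -0.16 to 5.41 for miR-6904-3p and -0.30 to 4.18 for miR-6984-5p.

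Replicate numbers were not treated as pairs in the main fit. To look for pairs, the mean log CPM of each group was first taken off per miRNA. The remainders of same-numbered libraries of the plasma groups correlated at -0.37, -0.29, -0.30 and 0.16. These values do not describe the likeness of whole libraries. C26-bearing replicate 4 matched control replicate 4 best, as C26-bearing replicates 1 to 3 also did. No same-numbered libraries were the best match in both directions. With a replicate block edgeR called 0 members and 3 of 13 had an unadjusted p under 0.05, beside 25.4% of all tested, and the log2 fold changes of miR-5118 and miR-5126 were 5.11 and -0.43. The main filter left out 52 of 65 members, and a count of 0 in the shallowest library allows 699 CPM of counts other than miR-5119.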
